A study of Mus musculus with 7 samples.

Results

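The 32 genes described here encode the route of pyruvate into the tricarboxylic acid (TCA) cycle and the enzymes of the cycle. They also encode carriers and enzymes that link the cycle to the cytosol or to amino acid metabolism. They were chosen by name from a table of 54532 genes, and each name matched 1 row. By role, 10 belonged to pyruvate entry and 13 to the enzymes of the cycle in the mitochondrion. The other 9 were carriers, shuttle genes and linking enzymes, with Glud1 among the last. Bulk RNA from livers of old C57BL/6 mice had been sequenced in 7 libraries. The 3 libraries of the MDL-800 group came from animals on a standard diet after supplementation with MDL-800, a compound described as an activator of the deacetylase SIRT6. The 4 control libraries came from animals on a standard diet. The labels give neither dose nor sex. They do not say whether each library was 1 animal, so p-values here refer to the spread among the libraries, which may be technical. The comparison asks how transcripts of this pathway differed between treated and control livers.

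As background, the mitochondrial pyruvate carrier brings pyruvate into the matrix, where the pyruvate dehydrogenase complex turns it into acetyl-CoA. Kinases (Pdk) phosphorylate and silence this complex, and phosphatases (Pdp) restore it. The cycle then oxidises the acetyl group and yields NADH, FADH2 and GTP or ATP, and its intermediates leave the matrix through carriers for lipid synthesis, glucose production and amino acid metabolism. In liver the malate-aspartate shuttle, built from paired malate dehydrogenases, paired aspartate aminotransferases and inner-membrane carriers, moves reducing equivalents between cytosol and matrix.

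RefSeq promoter windows (build GRCm38.p6, from 250 bases before to 50 bases after a start site) were found for 30 members. Idh3a and Pdp1 had no entry. The 150 bases just before the start site are shown for 5 genes whose MDL-800 and control libraries did not overlap (values below). They were chosen for that lack of overlap only. The stretch of the other such gene, Slc25a11, overlaps the gene model of Slc25a11 itself and is not shown. Overlap of the 5 stretches with other genes was not checked. Each is written from 5′ to 3′ on the strand of the gene, and capitals mark a match to CCGGAA (the core bound by ETS factors such as GABPA), GGGCGG (the GC box) or CCAAT on either strand. Neighbouring matches run together.
Dlat, chr9:50659781-50659930, minus strand: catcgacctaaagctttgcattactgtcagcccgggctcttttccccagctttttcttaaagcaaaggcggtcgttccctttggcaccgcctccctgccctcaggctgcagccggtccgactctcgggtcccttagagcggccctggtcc
Cs, chr10:128337577-128337726, plus strand: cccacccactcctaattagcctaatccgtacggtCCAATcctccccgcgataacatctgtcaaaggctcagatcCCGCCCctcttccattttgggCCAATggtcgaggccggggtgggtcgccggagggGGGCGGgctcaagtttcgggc
Dld, chr12:31351472-31351621, minus strand: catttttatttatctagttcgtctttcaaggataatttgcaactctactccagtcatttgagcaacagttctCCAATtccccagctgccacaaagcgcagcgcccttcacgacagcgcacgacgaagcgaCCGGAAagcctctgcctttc
Suclg2, chr6:95718847-95718996, minus strand: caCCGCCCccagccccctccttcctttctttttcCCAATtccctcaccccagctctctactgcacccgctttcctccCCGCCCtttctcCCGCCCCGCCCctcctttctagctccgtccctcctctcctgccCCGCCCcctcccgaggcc
Glud1, chr14:34310577-34310726, plus strand: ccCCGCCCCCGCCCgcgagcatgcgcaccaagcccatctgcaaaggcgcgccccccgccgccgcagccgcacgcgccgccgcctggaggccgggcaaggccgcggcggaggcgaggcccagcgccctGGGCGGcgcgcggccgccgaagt

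These 5 stretches differed in their letters. That of Suclg2 held 5 GC boxes and that of Glud1 held 3, while that of Dlat held none of the 3 motifs. The whole 300-base window of Dlat did hold a GC box. Over the whole 300-base windows, counted on both strands, CCGGAA was present in 10 of 30 members, against 16.7% of all 27025 genes with a window and 32.2% of the 8287 genes that also passed the filter on low values below. GGGCGG was present in 22 of 30 (38.2% and 67.4% on those backgrounds). CCAAT was present in 19 of 30, against 41.1% and 42.9%. No member window held TCAAGGTCA, an element bound by estrogen-related receptors (0.466% of all genes), the palindromic NRF1 element (1.07%), or the direct repeat bound by PPARs with RXR (0.0481%). Both strands were searched with the letters fixed as written, and a match is a description of letters only.

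Whole reads recovered from the deposited values summed to 17600066 to 19920469 per library. A member that passed the filter rested on 268 reads (Pdhx) to 33011 reads (Glud1) in a library. Hepatocyte markers, albumin among them, summed to 55302 to 83554 FPKM (fragments per kilobase of gene length, scaled to library size) in each library, as the liver label says. Reads of 4 Y-linked genes were present in MDL-800 2 and control 1 and numbered 0 in the other 5 libraries. These 2 libraries also stood apart on the first principal component of the genes tested, which took 49.6% of the variance. Results are therefore also given within the 5 libraries without such reads. These 5 were not alike in Xist, a transcript of the inactive X chromosome, which had 0 reads in control 3 and 15495 to 21104 reads in the other 4. Both libraries with Y-linked reads had 3 Xist reads. Without control 3 the median of the members described below was 0.28. The members lie on 16 chromosomes, with gene models at the GRCm38 positions of GENCODE M21. Those of the 6 genes named below as not overlapping between groups are chr9:50634633-50659780 (Dlat), chr10:128337734-128362479 (Cs), chr12:31331277-31351453 (Dld), chr6:95473009-95718800 (Suclg2), chr11:70644196-70647479 (Slc25a11) and chr14:34310727-34345265 (Glud1). Of the 32 members, 13 overlap another annotated gene, among them Fh1 with Kmo, Idh3b with Nop56, Mdh1 with Wdpcp and Slc25a11 with Rnf167. The library kit did not mark strand, so reads in those overlaps cannot be assigned to 1 gene.

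No member passed the test between MDL-800 and control livers, yet 29 of the 31 members tested had higher average values in MDL-800. The lowest unadjusted p-values were those of Dlat, the acetyltransferase of the pyruvate dehydrogenase complex, and Glud1, the glutamate dehydrogenase that feeds oxoglutarate into the cycle. By fold change, Dlat was followed by Pdk1 and Pdk2, kinases of that complex. The test was limma on log2(FPKM + 1) over the 11394 genes that averaged 1 FPKM or more, with Benjamini-Hochberg adjustment over all of them. Pdp1, at a mean of 0.47 FPKM in MDL-800 and 0.74 FPKM in control, was under that filter. The call threshold was an adjusted p of 0.05, which 0.00% of all genes passed. The lowest adjusted p of a member was 0.950 by limma, and 0 members passed limma voom on recovered reads. At an unadjusted p under 0.05 there were 3 members, each higher in MDL-800 (Dlat, Slc25a11 and Glud1), against a background of 3.23% higher and 1.62% lower over all genes. With voom 10 members were under that unadjusted limit, each higher, against 5.61% of all genes higher and 1.02% lower in that fit. The 95% interval of the log2 fold change included 0 for 28 of 31 members.

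The median log2 fold change on the log2(FPKM + 1) scale was 0.22 over the 31 members and 0.02 over all genes tested. Values above 0 made up 54.2% of all genes. With every library scaled to its median, 29 members were above 0, against 51.3% of all genes. Within the 5 libraries without Y-linked reads, 25 members were above 0 (median 0.18), against 53.3% of all genes. The added 1 FPKM makes the fold change of a low gene smaller than its ratio of means. By role the median was 0.26 for pyruvate entry (8 of 9 above 0), 0.24 for cycle enzymes (12 of 13) and 0.21 for carriers and shuttles (9 of 9). The medians rested in part on single libraries. Over all members the median was 0.12 without control 2 and 0.13 without MDL-800 2, against 0.12 to 0.28 over all 7 ways of leaving out a library. MDL-800 and control did not overlap for 6 members (Dlat, Cs, Dld, Suclg2, Slc25a11 and Glud1), each higher in MDL-800, against a background of 4.03% of genes higher and 2.42% lower.

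**Figure D1:**
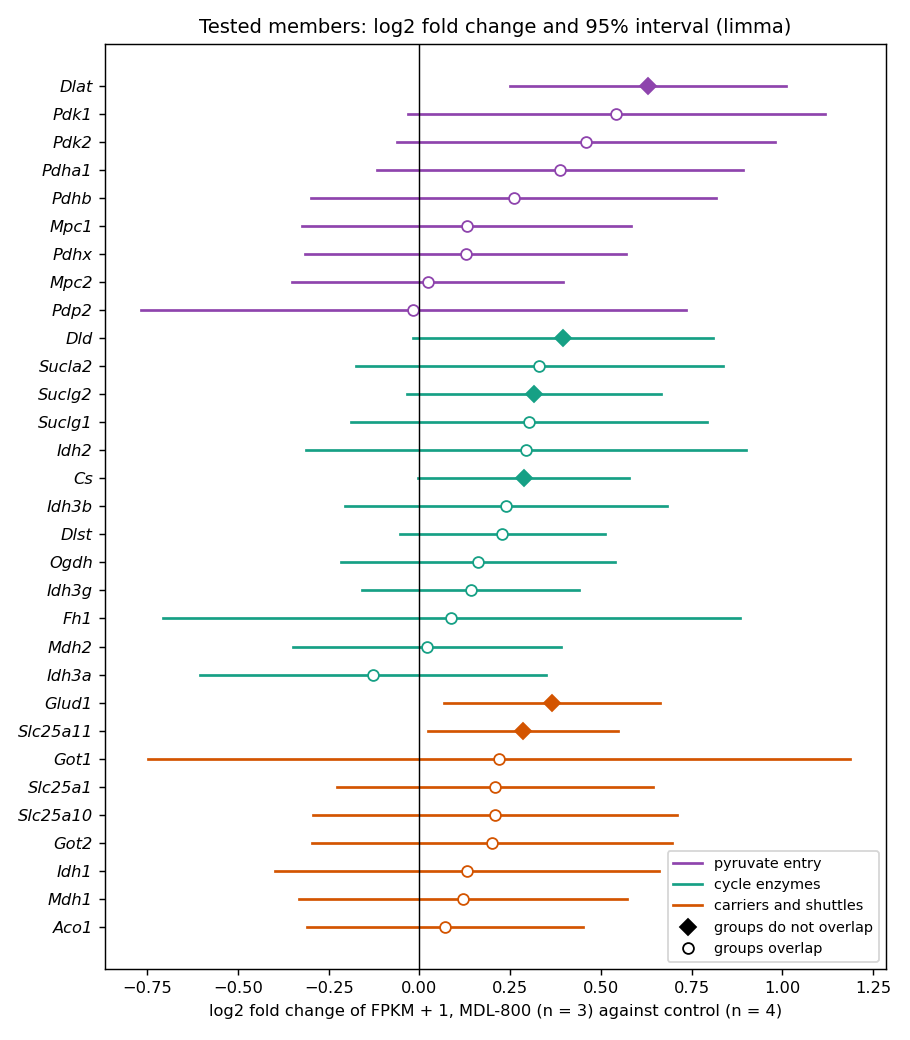
Log2 fold change of FPKM + 1 (horizontal axis) of the 31 tested members, MDL-800 (n = 3) against control (n = 4), by role; lines are 95% limma intervals and filled diamonds mark genes whose groups do not overlap. Values run from -0.13 (Idh3a) to 0.63 (Dlat), and 28 intervals include 0.

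Within pyruvate entry, the largest values were those of Dlat, the kinases Pdk1 and Pdk2, and Pdha1, and the smallest those of Pdp2 and the carrier subunit Mpc2. Dlat encodes the E2 core that passes the acetyl group to CoA. It was at 16.7, 19.5 and 22.0 FPKM in MDL-800 1 to 3 and at 11.6, 12.1, 15.3 and 10.1 FPKM in control 1 to 4. Each MDL-800 library lay above each control library, with control 3 the nearest. MDL-800 averaged 19.4 ± 2.64 FPKM (SD, n = 3) and control averaged 12.3 ± 2.18 FPKM (SD, n = 4). The log2 fold change was 0.63 (SE 0.16), with a 95% interval from 0.25 to 1.01 (limma adjusted p = 0.950). Its fold change ran from 0.54 to 0.73 over the alternatives tried, and was 0.60 within the 5 libraries without Y-linked reads.

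The catalytic E1 subunits overlapped between groups. Pdha1, the X-linked E1 alpha subunit that the kinases phosphorylate, was at 24.8, 37.1 and 30.0 FPKM in MDL-800 and at 28.4, 18.5, 27.4 and 19.1 FPKM in control. Controls 2 and 4 were low, and controls 1 and 3 lay above MDL-800 1. The log2 fold change was 0.39, and 0.24 without MDL-800 2. Pdhb, the E1 beta subunit, was highest in control 1 (44.8 FPKM) and lowest in control 2 (21.5 FPKM), with a log2 fold change of 0.26. That value was 0.10 without control 2 and 0.44 without control 1. Pdhx, which anchors the E3 enzyme to the core, was the lowest of the complex, with 6.11 ± 1.14 FPKM in MDL-800 (SD, n = 3) and 5.56 ± 1.43 FPKM in control (SD, n = 4). Its log2 fold change of 0.13 was 0.003 without MDL-800 2 and 0.27 without control 1.

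Both kinases had averages above control without passing. Pdk1 was at 16.03, 22.3 and 20.4 FPKM in MDL-800 and at 11.6, 11.3, 20.5 and 10.5 FPKM in control (log2 fold change 0.54, SE 0.24). Control 3 stood with the MDL-800 libraries, far from the other 3 controls. Without control 3 the value was 0.75. Pdk2, an abundant kinase isoform in liver, was at 31.9, 45.2 and 34.8 FPKM in MDL-800 and at 37.4, 20.6, 25.9 and 24.9 FPKM in control (log2 fold change 0.46, SE 0.22). Control 1 lay inside the MDL-800 range.

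The phosphatases and the carrier differed by less than their spread. Pdp2 ran from 4.35 to 10.1 FPKM over the 7 libraries and had a log2 fold change of -0.02 (95% interval from -0.77 to 0.73). Pdp1 ran from 17 to 73 reads per library. Mpc1 and Mpc2 encode the partners of the pyruvate carrier. Mpc1 was at 28.7 to 32.4 FPKM in MDL-800, within its control range of 22.0 to 38.5 FPKM. Its log2 fold change of 0.13 was 0.02 without control 1 and 0.28 without control 3. Mpc2 had a log2 fold change of 0.02 (95% interval from -0.35 to 0.40).

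Among the cycle enzymes, 3 transcripts were higher in each MDL-800 library than in each control library. Cs encodes the enzyme that joins acetyl-CoA to oxaloacetate. It was at 26.4, 26.5 and 30.2 FPKM in MDL-800 and at 22.2, 23.0, 25.5 and 19.7 FPKM in control (log2 fold change 0.29, SE 0.12). The gap between the nearest libraries, control 3 and MDL-800 1, was smaller than the spread within either group. Dld, the E3 enzyme shared by the pyruvate and oxoglutarate dehydrogenase complexes, was at 48.3, 54.5 and 49.3 FPKM against 43.5, 30.7, 47.2 and 33.8 FPKM. Its controls fell into a lower pair (2 and 4) and a pair close to MDL-800 (1 and 3); the log2 fold change was 0.40 (SE 0.18).

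The third was Suclg2, the GTP-forming beta subunit of succinyl-CoA ligase. It was at 76.5, 82.3 and 85.2 FPKM in MDL-800 and at 70.3, 52.7, 73.8 and 65.7 FPKM in control (log2 fold change 0.32, SE 0.15). Control 2 was the lowest of the 7, and without it the value was 0.22. The other subunits of that enzyme overlapped between groups. Sucla2, the ATP-forming beta subunit, had a log2 fold change of 0.33 (95% interval from -0.18 to 0.84). Suclg1, the shared alpha subunit, had 0.30 (from -0.19 to 0.79). Without control 2 these were 0.22 for Sucla2 and 0.15 for Suclg1.

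The isocitrate dehydrogenases did not share a direction. NAD-dependent isocitrate dehydrogenase holds a catalytic alpha subunit with beta and gamma partners. Idh3a, the alpha subunit, was at 10.4, 5.41 and 6.54 FPKM in MDL-800 and at 6.93, 8.01, 7.99 and 9.01 FPKM in control. MDL-800 1 was the highest and MDL-800 2 the lowest of the 7 libraries. Its log2 fold change was -0.13 (SE 0.20), and it was 0.05 without MDL-800 2. Idh3b and Idh3g were at 0.24 and 0.14, and at 0.15 and 0.07 without MDL-800 2. Without control 2 Idh3b was at 0.12, and without control 3 Idh3g was at 0.08. Per length, Idh3b (54.2 FPKM over all libraries) and Idh3g (22.1 FPKM) exceeded Idh3a (7.75 FPKM) in each library.

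Idh2, the mitochondrial NADP-dependent enzyme that helps supply NADPH in the matrix, was at 84.0, 49.2 and 85.9 FPKM in MDL-800 and at 42.7, 56.6, 66.1 and 68.8 FPKM in control. The lowest values were those of MDL-800 2 and control 1, the libraries with Y-linked reads. The log2 fold change of 0.29 (SE 0.26) became 0.41 within the other 5 libraries. It was 0.55 without MDL-800 2 and 0.15 without control 1.

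The remaining cycle enzymes overlapped between groups. Ogdh and Dlst, the E1 and E2 parts of the oxoglutarate dehydrogenase complex, had log2 fold changes of 0.16 and 0.23. Leaving out control 2 gave 0.07 for Ogdh, leaving out MDL-800 2 gave 0.08, and leaving out control 1 gave 0.26. Mdh2, which returns malate to oxaloacetate in the matrix, was at 0.02 (95% interval from -0.35 to 0.39). Fh1, fumarase, was at 51.0, 87.8 and 52.6 FPKM in MDL-800 and at 89.4, 35.1, 58.6 and 61.6 FPKM in control. MDL-800 2 and control 1 stood far above the rest. Its log2 fold change was 0.09, and it was -0.15 without control 2 and -0.16 without MDL-800 2.

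Of the carriers and linking enzymes, Glud1 and Slc25a11 were higher in each MDL-800 library than in each control. Glud1 was at 454, 420.0 and 408 FPKM in MDL-800 and at 342, 322, 356 and 306 FPKM in control. Control 3 and MDL-800 3 were the nearest libraries of the groups. MDL-800 averaged 427 ± 23.8 FPKM (SD, n = 3) and control averaged 332 ± 22.1 FPKM (SD, n = 4). The log2 fold change was 0.37, with a 95% interval from 0.07 to 0.66 (limma adjusted p = 0.950). Over the alternatives the value ran from 0.32 to 0.42.

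Slc25a11 exchanges oxoglutarate for malate across the inner membrane as part of the malate-aspartate shuttle. It was at 45.4, 46.4 and 41.3 FPKM in MDL-800 and at 38.3, 35.8, 37.8 and 33.0 FPKM in control (log2 fold change 0.29, SE 0.11). Its 95% interval ran from 0.02 to 0.55. MDL-800 3 and control 1 were the nearest libraries of the groups.

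The other carriers overlapped between groups. Slc25a1, which exports citrate for lipid synthesis, was at 94.1, 143 and 103 FPKM in MDL-800 and at 108, 81.8, 101 and 95.8 FPKM in control. MDL-800 2 alone stood above the control range, and the log2 fold change of 0.21 became 0.03 without it. Slc25a10, the dicarboxylate carrier for malate and succinate, had 0.21, and 0.06 without MDL-800 2. Idh1 and Aco1, the cytosolic isocitrate dehydrogenase and aconitase, had 0.13 and 0.07, and both turned below 0 without MDL-800 2 (-0.01 and -0.06).

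The transaminases differed in their spread. Got1, the cytosolic aspartate aminotransferase, was at 73.0, 96.6 and 79.1 FPKM in MDL-800 and at 36.0, 56.0, 107 and 115 FPKM in control. Controls 1 and 2 lay below and controls 3 and 4 above all MDL-800 libraries. This 3.18-fold span from lowest to highest was the widest of the 31 members tested, and the log2 fold change was 0.22 (SE 0.41). It was -0.10 without control 1 and -0.21 within the libraries without Y-linked reads. Got2, the mitochondrial enzyme, had 0.20 (SE 0.21), and Mdh1, the cytosolic malate dehydrogenase, 0.12 (SE 0.19). Without control 2 they were 0.06 and 0.03, and without MDL-800 2 they were 0.07 and -0.03.

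**Figure D2:**
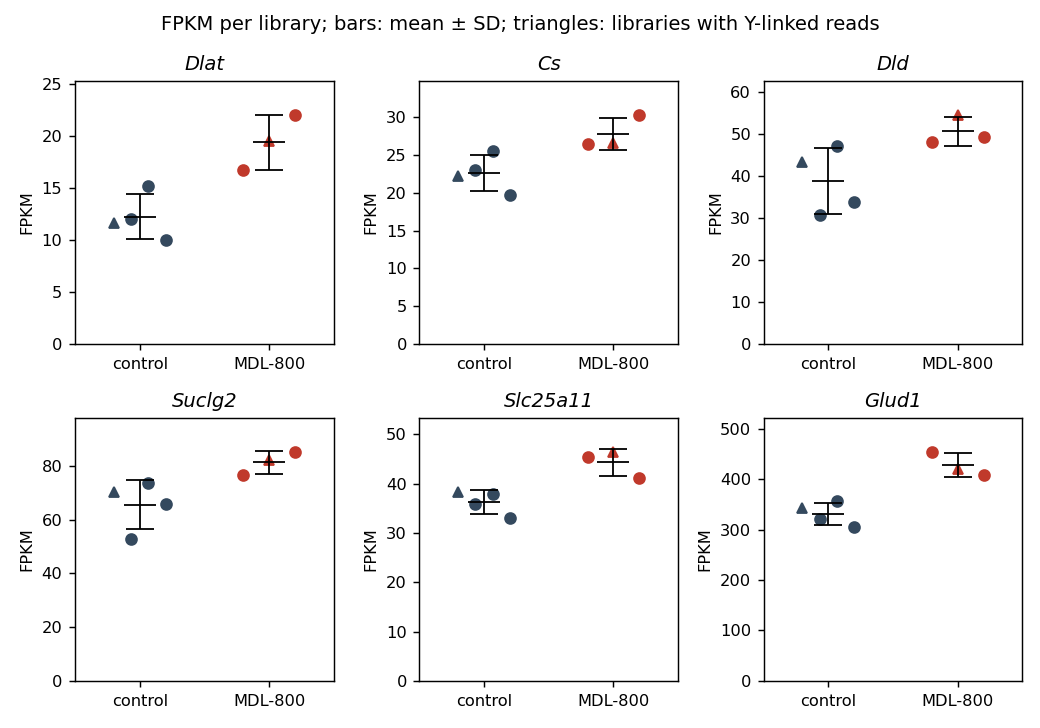
FPKM of the 6 members whose MDL-800 and control libraries did not overlap; points are libraries, black bars the mean and SD (control n = 4, MDL-800 n = 3), and triangles the libraries with Y-linked reads. Glud1 stands at 408 to 454 FPKM in MDL-800 and 306 to 356 FPKM in control.

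Ratios within a library do not depend on how that library was scaled, and 5 such ratios were compared between the groups. None differed by an exact two-sided permutation test over the 35 assignments of libraries, whose smallest possible p is 0.0286, and the adjusted p over the 5 ratios was 1 for each. The log2 ratio of Sucla2 to Suclg2 averaged -1.02 ± 0.17 in MDL-800 libraries (SD, n = 3) and -1.04 ± 0.24 in controls (SD, n = 4), with an exact p of 0.857. That of Mdh2 to Mdh1 averaged -2.33 ± 0.22 (SD, n = 3) and -2.23 ± 0.22 (SD, n = 4), with an exact p of 0.571. Per length, the mitochondrial malate dehydrogenase transcript was below the cytosolic one in every library.

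The ratio of Got2 to Got1 varied most among controls. On the log2 scale it was 0.59, 0.61 and 0.52 in MDL-800 1 to 3, and 1.89, 0.52, -0.07 and 0.05 in control 1 to 4 (exact p = 1). Idh2 to Idh1 stood at -1.06, -2.36 and -1.22 in MDL-800 and at -2.10, -1.58, -1.99 and -1.18 in control (exact p = 0.714). MDL-800 2 and control 1 had the lowest values of that pair. Mpc1 to Mpc2 was at -0.32 ± 0.19 (SD, n = 3) against -0.43 ± 0.25 (SD, n = 4), with an exact p of 0.543. With so few assignments, these p-values do not show that the ratios were alike.

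**Figure D3:**
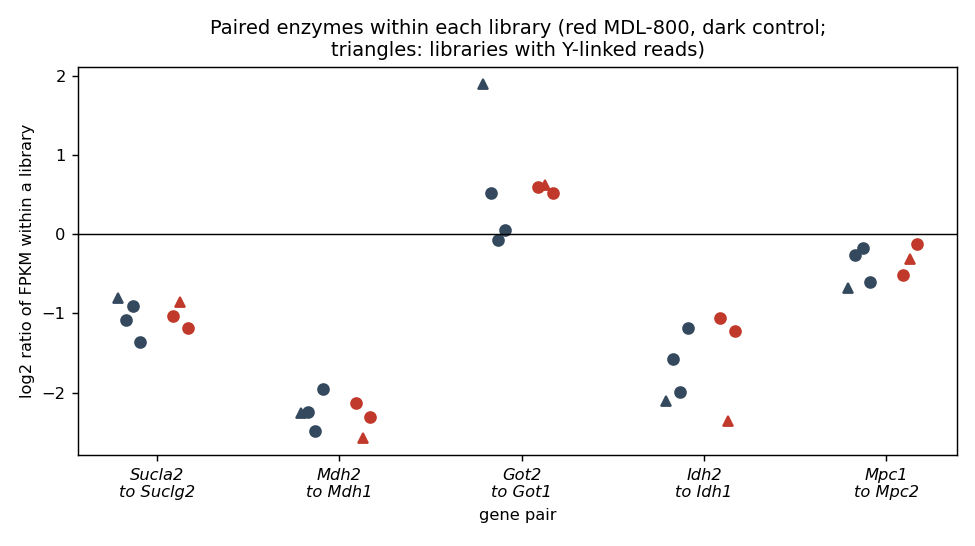
Log2 ratio of FPKM within each library (vertical axis) for 5 gene pairs; each point is a library, red for MDL-800 (n = 3) and dark for control (n = 4), with triangles for libraries with Y-linked reads. The groups overlap for each pair, and control 1 stands at 1.89 for Got2 to Got1.

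By FPKM, which divide reads by gene length, the linking enzymes stood highest among the members in liver. That length is a single listed value per gene, and transcript length in liver was not measured. The order between genes depends on it. By reads, Got2 (6938 to 11091 per library) was close to Idh1 (6371 to 10907). Glud1 averaged 373 ± 55.2 FPKM (SD, n = 7), Mdh1 258 ± 42.3 FPKM (SD, n = 7) and Idh1 200 ± 41.8 FPKM (SD, n = 7), and this order held in all 7 libraries. Got2 (115 FPKM) and Slc25a1 (104 FPKM) followed, and these neighbours differed by less than their spread. From Got1 at 80.3 FPKM down to Idh3g at 22.1 FPKM, each gene lay within 1 SD of the next (the larger SD of the pair). That run held the cycle enzymes Suclg2, Idh2, Fh1, Idh3b, Mdh2, Dld, Suclg1, Sucla2, Ogdh and Cs. Pdk1, Dlst and Dlat were at 16.1, 15.7 and 15.3 FPKM, closer than their spread. Idh3a, Pdp2 and Pdhx were at 7.75, 6.97 and 5.79 FPKM, and Pdp1 was the lowest member at 0.62 FPKM.

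Across libraries, the members tended to be high in MDL-800 2 and low in control 2. MDL-800 2 held the highest value of 16 of the 31 tested members, and control 2 the lowest value of 18. The share of all genes that were highest or lowest in these libraries was not counted. On the first principal component of all genes tested, MDL-800 2 and control 2 lay at opposite ends (-49.9 and 39.1). These counts are therefore not a trait of the members alone. The mean log2(FPKM + 1) of the cycle enzymes was 5.24, 5.32 and 5.23 in MDL-800 1 to 3 and 5.23, 4.82, 5.14 and 5.05 in control 1 to 4. Control 1 stood level with MDL-800 3. For pyruvate entry the values were 4.28, 4.65 and 4.45 in MDL-800 and 4.33, 3.91, 4.43 and 4.04 in control, which overlapped. For carriers and shuttles they were 6.74, 7.09 and 6.76 against 6.70, 6.44, 6.83 and 6.69, with control 3 higher than the first and the third MDL-800 library.

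Markers of other liver cells also differed between these libraries. The summed FPKM of 8 macrophage markers was 453, 131 and 368 in MDL-800 1 to 3 and 127, 909, 234 and 403 in control 1 to 4. Control 2 held the highest sum, and MDL-800 2 and control 1 the lowest. Of the 8, 1 had a log2 fold change above 0, against 54.2% of all genes. Of tested neutrophil markers 0 of 4 were above 0, and of B and plasma cell markers 0 of 6. Those above 0 were 4 of 6 for endothelial, 6 of 7 for stellate and fibroblast, and 2 of 3 for cholangiocyte markers. For T and NK cell markers 2 of 2 were above 0, and for hepatocyte markers 3 of 8. Neutrophil markers (5 genes) summed to 12.4 to 84.1 FPKM in MDL-800 and 24.1 to 293 FPKM in control, again with control 2 on top. Endothelial markers ran from 22.5 to 33.7 FPKM against 13.1 to 40.1 FPKM, stellate and fibroblast markers from 39.9 to 68.1 against 19.95 to 57.0 FPKM, and cholangiocyte markers from 28.8 to 90.8 against 24.2 to 54.8 FPKM. B and plasma cell markers ran from 7.16 to 63.7 against 19.4 to 84.6 FPKM, and T and NK cell markers from 3.48 to 13.9 against 4.94 to 11.6 FPKM. No marker of these lists was at 0 in all libraries or passed limma at an adjusted p of 0.05. The part of these cells in the member values was not tested, and in bulk tissue fewer cells of a type and less RNA per cell cannot be told apart.

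**Figure D4:**
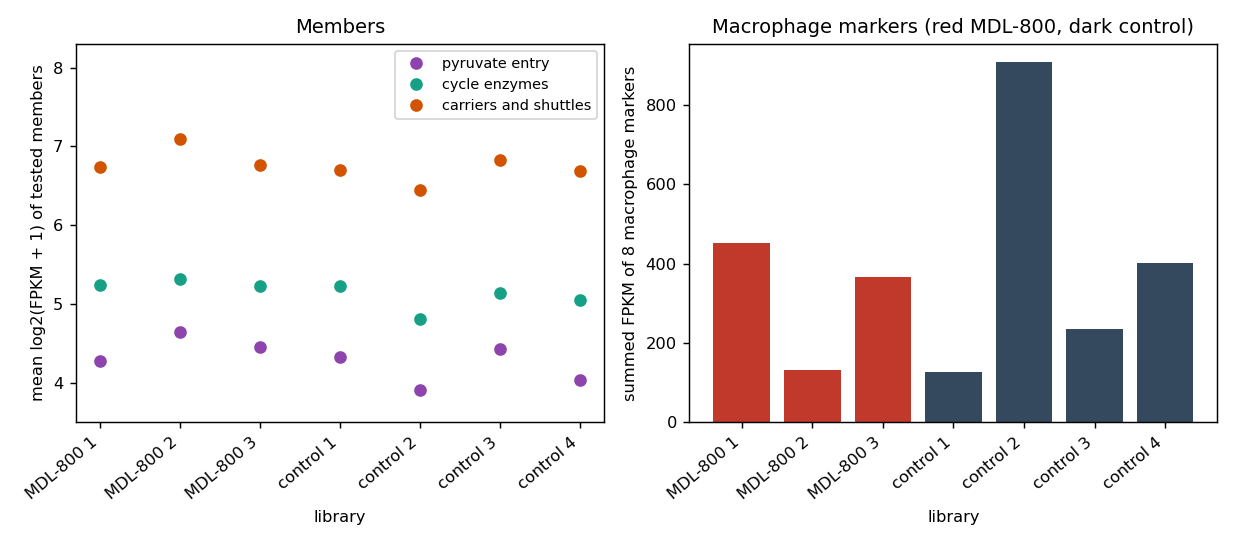
Left, mean log2(FPKM + 1) of the tested members of each role in the 7 libraries; right, summed FPKM of 8 macrophage markers in the same libraries (bars, red MDL-800, dark control). Control 2 has the lowest member means (4.82 for cycle enzymes) and the highest macrophage sum (909 FPKM).

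**Figure D5:**
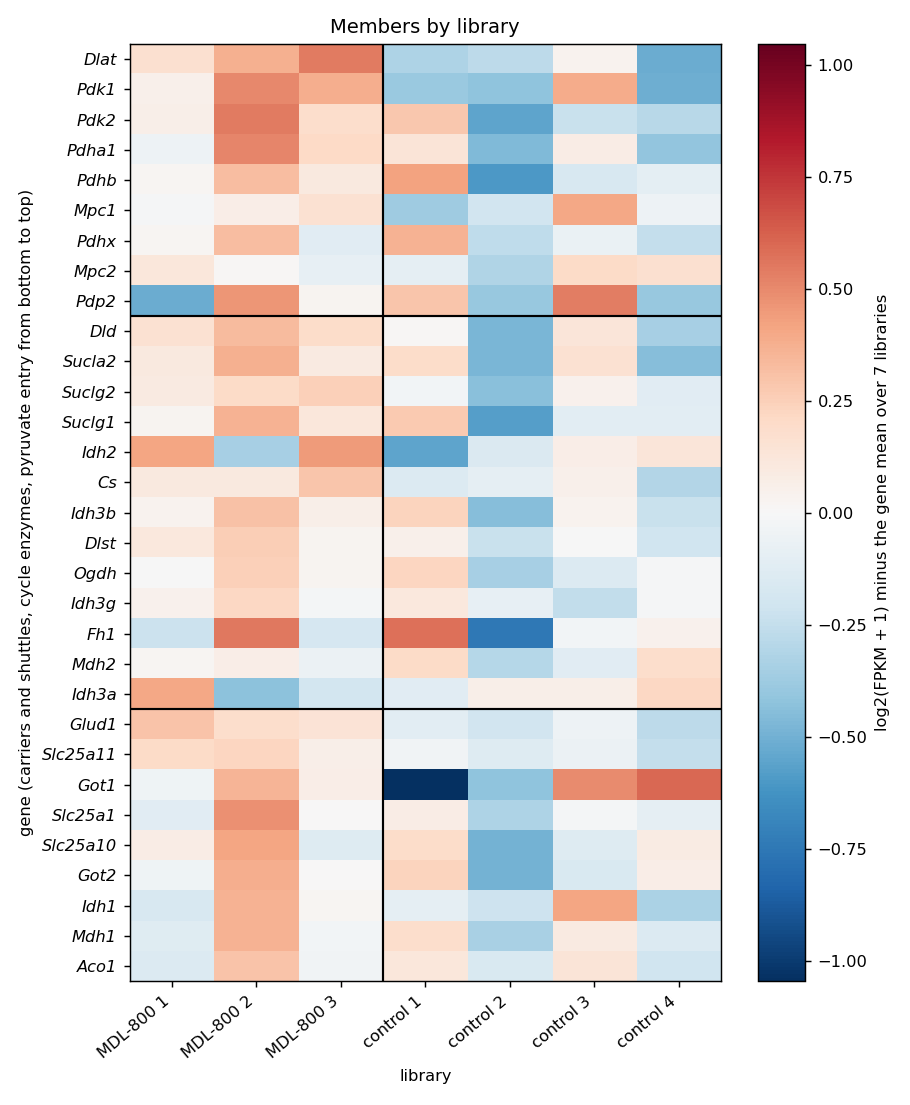
Log2(FPKM + 1) of each tested member minus its mean over the 7 libraries (color scale), with libraries as columns and genes as rows grouped by role. MDL-800 2 is the highest library for 16 genes and control 2 the lowest for 18, while Got1 is lowest in control 1 (36.0 FPKM). The shares over all genes were not counted.

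The 2 libraries with Y-linked reads were also compared with the others for each member. These 2 libraries are not a group of the study. In a limma fit with treatment and Y-linked reads as terms, 0 members passed the Y term, against a background of 1.33% of genes higher and 1.10% lower. Over the 31 members, 24 were above 0 on that term (median 0.22), against 61.1% of all genes. Idh2 was nearest to passing, at 49.2 and 42.7 FPKM in the libraries with Y-linked reads and 56.6 to 85.9 FPKM in the others. Its log2 difference was -0.66 (SE 0.13, limma adjusted p = 0.0589). The adjusted p was 0.0253 with voom, 0.0238 with quantile normalization, 0.049 with a minimum mean of 5 FPKM and 0.0386 without control 2, each past the threshold. It was 0.356 without MDL-800 2 and 0.400 without control 1.

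For Fh1 the libraries with Y-linked reads gave 87.8 and 89.4 FPKM, and the others 35.1 to 61.6 FPKM. Its log2 difference was 0.79 (limma adjusted p = 0.13), or 0.66 without control 2, where it passed (limma adjusted p = 0.0486). By adjusted p with all libraries, Pdhx and Pdk2 lay between Idh2 and Fh1. Their log2 differences were 0.47 and 0.54 (limma adjusted p = 0.0847 and 0.0977). In all, 13 of the 31 members were higher in both libraries with Y-linked reads than in each of the others, and 1 (Idh2) was lower. The background of such non-overlap was 20.0% higher and 12.8% lower over all genes. The macrophage sums of these 2 libraries, 131 and 127 FPKM, were also the lowest, and their part in these differences was not tested.

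Other genes of the pathway, in 4 further lists with 54 symbols, were also read out, and 47 of them were tested. Of these, 34 had a log2 fold change above 0, against 54.2% of all genes. By limma 0 passed, and 8 were at an unadjusted p under 0.05, each higher (3.23% of all genes). By voom 0 passed and 12 were under that limit, each higher (5.61% of all genes). Groups did not overlap for 5 of the 47, each higher, against 4.03% of all genes higher and 2.42% lower. Apart from Pdk4, the genes named below were chosen for the smallest limma p in their list. That choice favours genes whose groups do not overlap. The lists differed in their medians, which ran from 0.06 to 0.22. Among further cycle and pyruvate genes, 12 of 16 tested were above 0. Pdpr, a regulatory subunit of the pyruvate dehydrogenase phosphatase, was at 2.64, 4.22 and 4.17 FPKM in MDL-800 and at 1.63, 1.81, 2.87 and 1.24 FPKM in control (log2 fold change 0.71, SE 0.22). Control 3 alone lay above MDL-800 1.

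Sdhd, a membrane anchor of succinate dehydrogenase, averaged 201 ± 12.4 FPKM in MDL-800 (SD, n = 3) and 151 ± 24.5 FPKM in control (SD, n = 4), and its groups did not overlap. Pdk4, the kinase isoform induced by fasting, was looked up after its values were seen. It was at 8.51, 3.61 and 18.6 FPKM in MDL-800 and at 1.34, 7.47, 7.16 and 2.47 FPKM in control (log2 fold change 0.97, SE 0.63). That value was 0.44 to 1.49 as single libraries were left out.

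Among further shuttle genes, 6 of 10 tested were above 0. Gpd2, the mitochondrial enzyme of the glycerol phosphate shuttle, was at 8.45, 6.58 and 8.23 FPKM in MDL-800 and at 5.82, 4.26, 6.14 and 4.22 FPKM in control. The groups did not overlap (log2 fold change 0.53, SE 0.16). Gpt2, the mitochondrial alanine aminotransferase, was at 52.8, 98.4 and 76.3 FPKM against 52.9, 39.6, 54.9 and 52.8 FPKM, with MDL-800 1 inside the control range. Slc25a21, the oxodicarboxylate carrier, did not overlap between groups, with 4.35, 5.30 and 4.12 FPKM in MDL-800 and 3.82, 4.07, 3.36 and 3.72 FPKM in control.

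Genes of lipoic acid attachment and succinate dehydrogenase assembly had a median of 0.06, with 7 of 10 above 0. Lias, which makes the lipoyl group that Dlat and Dlst carry, had a log2 fold change of 0.24, and Oxsm, of mitochondrial fatty acid synthesis, 0.22. Lipt2, a lipoyl transferase, had -0.63 (SE 0.43), and its highest value was 12.3 FPKM in control 3.

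Among regulators of mitochondrial genes, 9 of 11 tested were above 0. Ppara, the nuclear receptor of the fasting response, was at 18.7, 39.5 and 26.7 FPKM in MDL-800 and at 19.6, 9.65, 16.04 and 7.27 FPKM in control (log2 fold change 1.08, SE 0.38). Control 1 lay above MDL-800 1. Gabpa, the ETS factor whose core is marked in the promoters above, was at 10.2, 13.7 and 11.4 FPKM against 10.0, 8.69, 9.75 and 8.65 FPKM. Its groups did not overlap, though MDL-800 1 and control 1 were close (log2 fold change 0.31, SE 0.12). Tfam, which packages and transcribes mitochondrial DNA, had 0.21.

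Nuclear genes of oxidative phosphorylation, the pathway that uses the NADH of the cycle, give a mitochondrial comparison. Of 79 such genes 73 were tested, 63 were above 0 and the median log2 fold change was 0.17, beside 0.22 for the members. Groups did not overlap for 3 of the 73, each higher in MDL-800, a share near the 4.03% of all genes. Without control 2 the medians were 0.06 for these subunits and 0.12 for the members, and without MDL-800 2 they were 0.07 and 0.13. Control 2 was the lowest library for 67 of the 73 subunits, but the share of all genes lowest in control 2 was not counted. Control 1, at 6.50 on the mean log2 scale, was higher than MDL-800 1 (6.29) and MDL-800 3 (6.25). The difference between the lists was not tested.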

How the data were processed

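The deposited file is a single table of FPKM for each gene and library, made by the authors. TopHat2 2.0.14, Bowtie2 2.1.0, Cufflinks 2.2.1 and build mm9 are named, per the submitters' processing notes, with their roles and the read counter not given in the sources used here. Coordinates in the table are those of GRCm38 (53756 of 54409 identifiers shared with GENCODE M21 had the same chromosome and start). Tissue was lysed directly and cDNA amplified with a low-input kit, per the labels' protocols. Multiplied by gene length, 100% of the nonzero values lay within 0.01 of whole multiples of a step, which recovered reads. Their sum was 0.995 (control 2) to 1.28 (MDL-800 2) times the denominator the FPKM imply.

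Log2(FPKM + 1) was tested with limma 3.58.1 (R 4.3.3, eBayes with a trend, two-sided) over genes averaging 1 FPKM or more. The alternatives were a pseudocount of 0.1, no filter, a 5 FPKM filter, quantile and median scaling, summed reads as denominator, voom, a replicate block, a Y-linked term, the 5 libraries without Y-linked reads, and leaving out each library. The fit was also run on simulated data. That outcome is not given here, so whether differences of the members' size could be called is not shown. Members and lists were chosen with earlier results of these data known. All members are named, with the 3 genes of smallest p in each further list, except 1 that is not reported here. Ratios were compared with exact permutation tests. Plots used matplotlib 3.10.9.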

Additional observations from a re-analysis of the deposited data

Results flagged for a closer look

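In the control group, 1 library stood apart for 1 of 32 members by Dixon's test of the gap to its neighbour. Pdk1, a pyruvate dehydrogenase kinase, was at 20.5 FPKM in control 3, and the other 3 controls were at 10.5 to 11.6 FPKM. Chance alone marks about 1 in 20 such groups. The MDL-800 group, with 3 libraries, was not examined in this way.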

How the results depend on the processing

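No member passed limma between MDL-800 and control under any of the alternatives, and 22 of 31 members kept their sign in all 17 of them. Over all genes, 0 to 1 passed as libraries were left out, the 1 without MDL-800 1 or without control 1. The share of higher values depended on the scaling: 368 of 553 genes at an unadjusted p under 0.05 were higher, 630 of 776 when FPKM were rescaled by summed reads, and 639 of 755 with voom. Unadjusted, the member count was 10 under each of the latter 2. The pyruvate entry median was 0.096 without control 2 and 0.44 without control 1. The median of carriers and shuttles was 0.061 without MDL-800 2, 0.078 without control 2 and 0.085 within the libraries without Y-linked reads. For the Y-linked term, 1 member passed with a 5 FPKM filter, quantile normalization or voom, and 0 to 2 as libraries were left out, the 2 without control 2.

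Several group differences turned sign, among them Got1 (0.22 with all libraries) and the log2 ratio of Idh2 to Idh1 (0.17). As libraries were left out, the log2 ratio difference ran from -0.088 to 0.101 for Sucla2 to Suclg2, from -0.203 to 0.017 for Mdh2 to Mdh1, from -0.245 to 0.409 for Got2 to Got1 and from -0.078 to 0.575 for Idh2 to Idh1. Fold changes ran from -0.080 to 0.093 for Mpc2, -0.251 to 0.237 for Pdp2, -0.366 to 0.050 for Idh3a, -0.163 to 0.292 for Fh1, -0.075 to 0.090 for Mdh2, -0.059 to 0.162 for Aco1, -0.015 to 0.288 for Idh1, -0.027 to 0.218 for Mdh1 and -0.098 to 0.450 for Got1. Within the libraries without Y-linked reads, the differences were 0.011 for Mdh2 to Mdh1, 0.390 for Got2 to Got1, -0.0040 for Mpc2, -0.0096 for Aco1, -0.028 for Idh1 and -0.212 for Got1. Quantile normalization gave -0.0074 for Mpc2. For Pdp2, summed reads gave 0.017 and voom 0.024. The cause of these reversals was not tested.

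Libraries of the same replicate number gave correlations of deviations of -0.58, -0.61 and 0.13. None of these 6 libraries correlated best with its own number. MDL-800 2 and control 1, both with Y-linked reads, correlated at 0.76. That shared difference enters the correlations, so they cannot decide whether the numbers pair the libraries. With the replicate block 0 members and 0 genes passed (1 and 190 at an unadjusted p under 0.05), the role medians were 0.26, 0.19 and 0.24, and the Sucla2 to Suclg2 difference was -0.088. Read number limits Pdp1 (17 to 73 reads) more than the members tested (268 or more).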
